A study of Mus musculus with 12 samples.

Results

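The Hox genes of the mouse are 39 homeobox genes in 4 clusters, and all 39 were found among the 52459 gene symbols of the count tables by their names (Hox, a letter for the cluster from A to D and a number for the paralog group). Their levels were followed in the cerebellum (Cb) and in the forebrain/midbrain (F/M) of male mice of 4 months of age. The mice were either homozygous for a gene-targeted disruption of Tpp1 (Tpp1-/-, T), a model of classical late-infantile neuronal ceroid lipofuscinosis, or their wild-type siblings (N), bred by crossing heterozygotes. RNA selected for poly(A) was sequenced in 12 libraries, 3 for each of the 4 groups F/M-N, F/M-T, Cb-N and Cb-T, and every value below is a count of reads on a gene or a CPM (a count scaled to the size of the library, normalized by the TMM method). The clusters were chosen by their measured levels in Cb-T and Cb-N, so their values in this comparison are a description. No p-value of a Hox gene between Cb-T and Cb-N is given, and nothing is read from how many of them were called.

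Hox proteins are homeodomain transcription factors that give cells their position along the head-to-tail axis. The order of the genes along a cluster follows the order in which they are expressed along the body: paralogs with low numbers begin in the hindbrain, those in the middle begin in the caudal hindbrain and the cervical spinal cord, and those with the highest numbers begin in the thoracic to caudal cord. The forebrain and the midbrain lie in front of the Hox domain. The neurons and glia of the cerebellum arise mostly from the most anterior rhombomere, which also lies in front of it, whereas the pons and medulla keep Hox expression into adult life.

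The libraries held between 21428379 and 24458189 counts, so that 3 counts, taken as the smallest detectable level, were between 0.123 and 0.140 CPM. These floors, and the intervals given below, cover counting error only. Tpp1 checked the genotype labels, with 2423 to 2522 counts in the Cb-N libraries and 663 to 771 in the Cb-T libraries, and with 1970 to 2174 in F/M-N and 526 to 546 in F/M-T. Defining genes of the cerebellum (11 genes such as Pcp2, Gabra6 and Cbln1) summed to 6917 to 6988 CPM in Cb-N and 5846 to 5913 CPM in Cb-T. They summed to 240 to 254 CPM over the F/M libraries. Those of the forebrain (10 genes such as Emx1 and Neurod6) summed to 315 to 365 CPM in F/M. In the cerebellum these forebrain genes summed to 8.34 to 8.62 CPM in Cb-N and 10.4 to 12.5 CPM in Cb-T. The Cb-T libraries also carried genes of brainstem neurons that the Cb-N libraries had at a fraction of the level, given after the Hox genes. This holds for all 3 Cb-T libraries, so no value for Cb-T could be given without them. In tissue RNA of this kind, more cells of a type and more RNA per cell cannot be told apart.

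To show the genes at the level of sequence, the promoters of the Hox genes that led the Cb-T libraries are printed where a window was given, namely Hoxa5, Hoxb4, Hoxc4 and Hoxa3, with that of Hoxa9, which lies in the same cluster as Hoxa5 and had no count in any library. Each window runs from 250 bases before to 50 bases after a RefSeq transcription start on GRCm38.p6, 5′ to 3′ on the strand of the gene: chr6:52204538-52204837 (minus strand) for Hoxa5, chr11:96318017-96318316 (plus strand) for Hoxb4, chr15:103034145-103034444 (plus strand) for Hoxc4, chr6:52213018-52213317 (minus strand) for Hoxa3 and chr6:52227321-52227620 (minus strand) for Hoxa9. Capitals mark AGGTCA or its reverse complement, the half-site of retinoic acid receptors, which are known to switch on Hox genes in the developing hindbrain.
Hoxa5: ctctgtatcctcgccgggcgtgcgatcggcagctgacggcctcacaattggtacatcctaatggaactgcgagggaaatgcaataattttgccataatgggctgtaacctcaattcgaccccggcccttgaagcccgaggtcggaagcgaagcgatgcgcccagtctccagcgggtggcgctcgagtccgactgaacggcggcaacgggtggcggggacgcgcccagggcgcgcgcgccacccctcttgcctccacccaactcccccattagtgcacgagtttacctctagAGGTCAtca
Hoxb4: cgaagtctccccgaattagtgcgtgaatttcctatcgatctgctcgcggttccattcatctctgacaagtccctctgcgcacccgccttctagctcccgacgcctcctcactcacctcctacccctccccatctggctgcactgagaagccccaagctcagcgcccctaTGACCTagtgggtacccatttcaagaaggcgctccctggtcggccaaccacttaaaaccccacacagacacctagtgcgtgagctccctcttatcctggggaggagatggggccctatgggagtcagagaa
Hoxc4: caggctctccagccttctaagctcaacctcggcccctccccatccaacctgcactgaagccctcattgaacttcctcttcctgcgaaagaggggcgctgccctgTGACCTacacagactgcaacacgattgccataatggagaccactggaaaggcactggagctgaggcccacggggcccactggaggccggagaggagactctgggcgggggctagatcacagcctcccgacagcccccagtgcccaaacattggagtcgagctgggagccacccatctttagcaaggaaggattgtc
Hoxa3: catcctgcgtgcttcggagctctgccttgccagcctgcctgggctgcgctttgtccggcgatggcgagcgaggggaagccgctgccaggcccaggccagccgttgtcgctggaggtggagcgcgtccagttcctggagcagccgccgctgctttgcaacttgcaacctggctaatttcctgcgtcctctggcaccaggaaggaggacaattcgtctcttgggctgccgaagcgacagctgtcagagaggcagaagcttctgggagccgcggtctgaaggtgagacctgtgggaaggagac
Hoxa9: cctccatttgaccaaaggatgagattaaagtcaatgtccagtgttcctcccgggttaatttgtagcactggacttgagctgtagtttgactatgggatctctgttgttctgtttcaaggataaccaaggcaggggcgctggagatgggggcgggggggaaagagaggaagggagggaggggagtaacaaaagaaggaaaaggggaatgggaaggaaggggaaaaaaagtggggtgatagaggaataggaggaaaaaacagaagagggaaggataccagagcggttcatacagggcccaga

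Windows were given for 22 of the 39 genes, 24 windows in all. AGGTCA was searched on both strands, and it lay in 7 of the 24 Hox windows (29.2%), against 16.3% of the 32851 promoter windows of the same length. It was in 5 of the 10 windows of genes with more than 3 counts over Cb-T (those of Hoxa5, Hoxb4, Hoxc4, Hoxd3 and Hoxd4) and in 2 of the 14 others (those of Hoxd8 and Hoxd10). The motif was picked with these genes in view, and a match is a description of the letters and not of a bound site. The composite site of Hox proteins and their Pbx partners (TGATNNAT, both strands) lay in 4 of the 24 windows, those of Hoxa2 and Hoxb8 and those of Hoxb1 and Hoxd11, which had no count in any library, against 8.85% of all windows. CCAAT lay in 62.5% of the Hox windows and in 37.4% of all. The Hox windows had a median observed-over-expected CpG of 0.626, against 0.384 over all windows.

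Summed over the 39 genes, the Hox level was 15 ± 0.394 CPM (SD, n = 3) in Cb-T and 0.622 ± 0.112 CPM (n = 3) in Cb-N. The 3 Cb-T libraries held 365, 369 and 353 Hox counts, and the 3 Cb-N libraries 14, 16 and 11. The F/M libraries held fewer still, 6, 4 and 7 counts in F/M-N and 8, 6 and 4 in F/M-T. The Cb-T libraries were thus close to each other and lay far above the 9 others. The pooled level in Cb-T was 24.0 times that in Cb-N (counting interval 17.6 to 33.7, at 95%). In F/M, the summed level was 0.246 ± 0.0595 CPM in the controls and 0.257 ± 0.0898 CPM in the Tpp1-/- libraries (n = 3 each), which overlapped.

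Where in the clusters the counts fell was uneven. Over Cb-T, 19 of the 39 genes had more than 3 counts, against 5 over Cb-N, 1 over F/M-N and 2 over F/M-T. There were 16 genes with no count in any of the 12 libraries. Of the 16 genes with paralog numbers 9 to 13, 14 had no count in Cb-T, and the other 2 were Hoxb9 with 2, 0 and 2 counts and Hoxd13 with 0, 3 and 0. At these depths a lower level of the silent genes was not detectable, since a count of 0 in a library allows up to 3 counts.

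**Figure D1:**
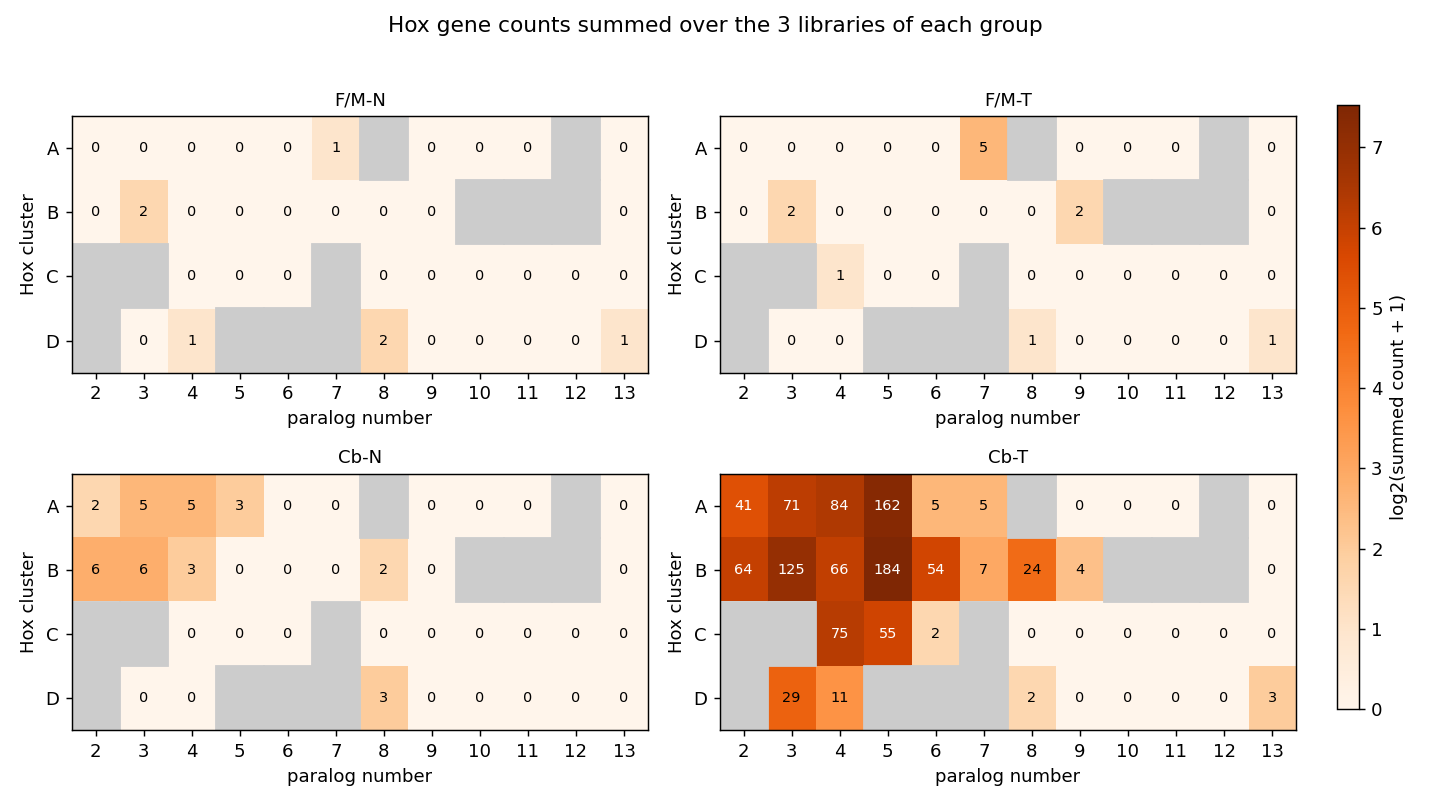
Counts of each Hox gene summed over the 3 libraries of a group, with the clusters A to D in rows and the paralog numbers 2 to 13 in columns. The color gives log2 of the summed count plus 1, and gray marks positions with no gene. In Cb-T the counts fill paralogs 2 to 5 in every cluster that has them and reach 184 for Hoxb5 and 162 for Hoxa5, while the other 3 groups hold at most 6 counts in any cell.

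By paralog number, group 5 had the highest summed level in Cb-T, 5.53 ± 0.815 CPM (401 counts over 3 genes). It stood at 0.0453 ± 0.0458 CPM in Cb-N (3 counts), and no F/M library had a count of it. Groups 4 and 3 followed with 3.25 ± 0.0745 and 3.09 ± 0.163 CPM, and their libraries overlapped. Group 2 had 1.44 ± 0.111 CPM, and group 6 had 0.836 ± 0.285 CPM. Groups 8 and 7 were lower, at 0.356 ± 0.0769 and 0.165 ± 0.11 CPM (n = 3 for each). The mean level was thus higher at each step from group 2 to group 5, with groups 3 and 4 not separable, and far lower in every group after it. These sums are not scaled to exon length, and the groups differ in their number of genes, so the order holds for summed CPM only.

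**Figure D2:**
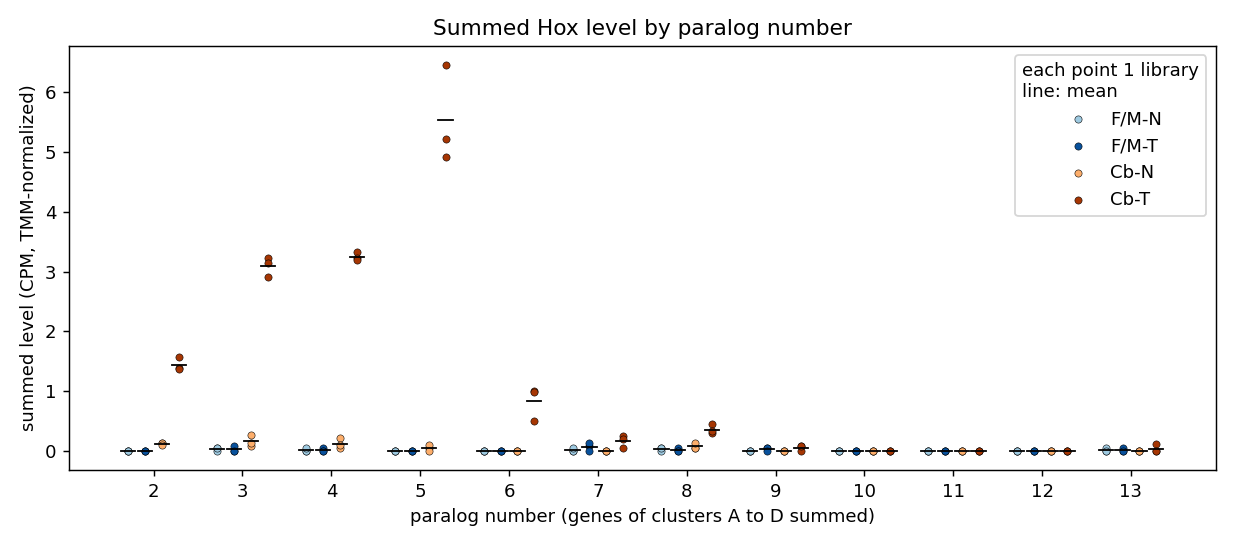
Summed level of the Hox genes of paralog numbers 2 to 13 in CPM, with each point 1 library and each line the mean of 3. The 3 Cb-T libraries lie at 4.91 to 6.45 CPM for paralog 5 and at 2.91 to 3.33 CPM for paralogs 3 and 4, above every library of the other groups.

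The first paralog group sets the earliest hindbrain domains in the embryo. Hoxb1, needed for facial motor neurons, had no count in any library. Hoxd1 had the opposite order to most Hox genes in its values, with 0, 0 and 2 counts in Cb-T and 1, 2 and 1 in Cb-N (ratio 0.453, interval 0.041 to 3.16), and its F/M-N libraries had 2, 2 and 3. Hoxd1 had the highest mean level of any Hox gene in an F/M group, 0.101 CPM.

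Paralog 2 genes give identity to the anterior rhombomeres. Hoxb2 had 25, 26 and 13 counts in Cb-T and 3, 1 and 2 in Cb-N. Its level was 0.88 ± 0.296 CPM against 0.0906 ± 0.0437 CPM, a ratio of 9.67 (interval 4.21 to 27.3). The groups did not overlap, although the third Cb-T library was well below the other Cb-T libraries. Hoxa2, which represses the program of the first branchial arch, had 8, 13 and 20 counts in Cb-T and 0, 2 and 0 in Cb-N (ratio 18.6, interval 4.83 to 159), just short of the limit of 10 counts in every Cb-T library that selects the genes described in full. The gene nearest to that limit from above was Hoxb6, with 11 counts in its lowest Cb-T library.

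Among paralogs 3, which pattern the caudal hindbrain and the structures of the pharyngeal arches, Hoxb3 was the most abundant in counts. It had 39, 47 and 39 counts in Cb-T and 0, 5 and 1 in Cb-N, or 1.72 ± 0.152 against 0.0919 ± 0.121 CPM, a ratio of 18.9 (interval 8.44 to 52.5). Hoxa3 had 22, 26 and 23 counts in Cb-T and 2, 1 and 2 in Cb-N, at 0.976 ± 0.0627 against 0.0758 ± 0.026 CPM and a ratio of 12.9 (interval 5.27 to 40.9). Both were evenly spread over the Cb-T libraries and did not overlap with Cb-N. Hoxd3 had 8, 7 and 14 counts in Cb-T and none in Cb-N, at least 8.77-fold higher when Cb-N is set at 3 counts over the group, as for every such bound here. Of its annotated exon bases, 62.3% also belong to the transcripts of Hoxd4 and of Gm28230, so the reads of Hoxd3 and Hoxd4 are uncertain.

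All 4 genes of paralog 4 were found in Cb-T. Hoxa4 had 25, 28 and 31 counts in Cb-T and 3, 0 and 2 in Cb-N, at 1.16 ± 0.117 against 0.0753 ± 0.0682 CPM and a ratio of 15.2 (interval 6.28 to 48.1). Hoxb4 had 21, 22 and 23 counts in Cb-T and 2, 1 and 0 in Cb-N, at 0.908 ± 0.0388 against 0.0449 ± 0.0444 CPM and a ratio of 19.9 (interval 6.54 to 99.2). Hoxb4 was the steadiest of the Hox genes described in full, with a coefficient of variation of 4.27% over Cb-T. Hoxc4 had 30, 26 and 19 counts in Cb-T (1.03 ± 0.239 CPM) and none in Cb-N, at least 22.7-fold higher, and its only other count was in 1 F/M-T library. Hoxd4 was the lowest, with 3, 4 and 4 counts in Cb-T and none in Cb-N (at least 3.32-fold higher).

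Paralog 5 held the most abundant genes. Hoxb5 had 76, 58 and 50 counts in Cb-T, or 2.54 ± 0.593 CPM, and no count in the 9 other libraries, which places it at least 55.6-fold above Cb-N. Hoxa5, known from the motor and respiratory circuits of the caudal brainstem and cervical cord, had 62, 37 and 63 counts in Cb-T and 1, 2 and 0 in Cb-N. Its level was 2.24 ± 0.648 CPM against 0.0453 ± 0.0458 CPM, a ratio of 49.0 (interval 16.5 to 240). Hoxc5, which acts with Hoxa5 in phrenic motor neurons, had 15, 27 and 13 counts in Cb-T (0.753 ± 0.293 CPM) and none in the 9 others, at least 16.6-fold higher than Cb-N. The second Cb-T library was the lowest for Hoxa5 and the highest for Hoxc5, so no Cb-T library was the highest for every gene.

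Beyond paralog 5 the counts came mainly from cluster B. Hoxb6 had 11, 20 and 23 counts in Cb-T (0.741 ± 0.251 CPM) and none elsewhere, at least 16.3-fold higher than Cb-N. Hoxb8 had 6, 10 and 8 counts in Cb-T and 0, 1 and 1 in Cb-N (ratio 10.9, interval 2.7 to 95), and Hoxb7 had 3, 3 and 1 against none. Hoxa6 (1, 4 and 0 counts) and Hoxa7 (3, 2 and 0) overlapped with the Cb-N libraries, which had no count of them, and Hoxa7 reached 2, 0 and 3 counts in F/M-T. Hoxc6, which marks motor neurons that supply the forelimb, had 0, 1 and 1 counts, and Hoxc8 had none. Hoxd8 had 1, 1 and 0 counts in Cb-T and 1, 0 and 2 in Cb-N.

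**Figure D3:**
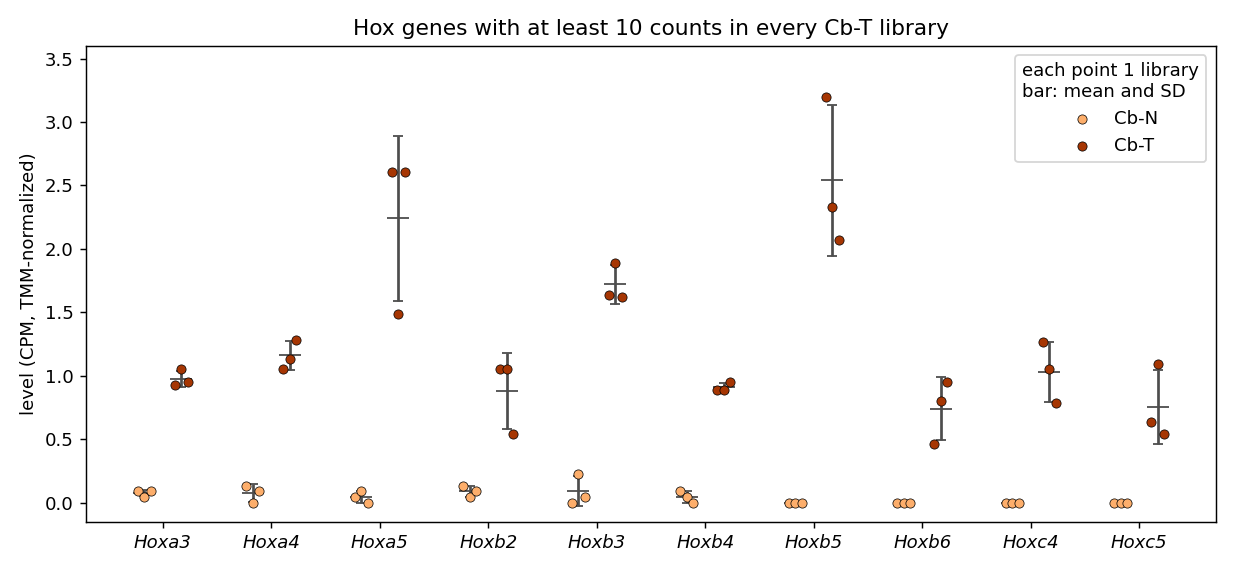
Level in CPM of the 10 Hox genes with at least 10 counts in every Cb-T library, with each point 1 library and the bars giving the mean and SD of 3 libraries. Every Cb-T library lies above every Cb-N library for each gene, and Hoxa5 and Hoxb5 are the highest in CPM with the widest spread.

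With each library on its own, every Cb-T library was above every Cb-N library for 16 Hox genes, among them all 9 genes of paralogs 2 to 4 and 6 of the 11 genes of paralogs 5 to 8 but none of paralogs 9 to 13. Among all genes with a count in Cb, 18.0% had this order, and 23 of the Hox genes had such a count. The 10 genes with at least 10 counts in every Cb-T library were also the 10 that passed edgeR's filter on low counts, and all 10 were higher in Cb-T at the limits of the study (FDR below 0.1 and at least 1.5-fold), where 8.54% of the 16382 genes tested were called higher. With the filter off, edgeR tested the 23 Hox genes with a count in Cb and called 16 higher, where 6.22% of 28980 genes were called higher. The clusters were chosen by these same values, and the 10 genes passed the filter through the Cb-T libraries, where they are high, so nothing is read from these 3 counts. As a description, the fitted log2 fold changes of the 10 ranged from 3.21 (SE 0.5) for Hoxb2 to 5.47 (SE 0.47) for Hoxa5 among those with counts in Cb-N, and those of Hoxb5, Hoxb6, Hoxc4 and Hoxc5 depend on the prior count of the fit. Single Cb-N libraries decide the size of some of these values. The log2 fold change of Hoxb3 was 4.17 with all libraries and 5.95 without Cb-N replicate 2, and that of Hoxa5 was 5.47 and 6.32 without the same library. Without Cb-N replicate 1 that of Hoxb4 was 5.01 in place of 4.18, and that of Hoxa4 was 4.5 in place of 3.85. The 10 genes held 86.5% of the Hox counts of Cb-T.

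The 10 genes varied more between Cb-T libraries than the typical gene, with a median coefficient of variation of 23.3% and a highest value of 39% for Hoxc5, against 4.43% over all genes tested, which have far more counts. Levels were set between these 10 genes per kilobase of exon, leaving out the bases that transcripts of another gene on the same strand share. On this scale Hoxa5 had 1.19 ± 0.345 CPM, Hoxb5 0.911 ± 0.213 CPM and Hoxa4 0.725 ± 0.0737 CPM in Cb-T. These 3 overlapped in turn, whereas Hoxa4 did not overlap with the next gene, Hoxb3, at 0.404 ± 0.0357 CPM per kilobase. Hoxc4 (0.402 ± 0.0932), Hoxb6 (0.377 ± 0.128), Hoxb4 (0.354 ± 0.0151), Hoxc5 (0.257 ± 0.1), Hoxb2 (0.252 ± 0.0847) and Hoxa3 (0.176 ± 0.0113) came next, all in CPM per kilobase, and the libraries of each overlapped with those of its neighbor. Of the Hox genes below the limit of 10 counts in every Cb-T library, Hoxa2 (0.373) and Hoxd3 (0.253 CPM per kilobase, with 62.3% of its exon bases left out as shared) lay within this range. So on this scale the leading genes were the neighbors Hoxa4 and Hoxa5 with Hoxb5. Bases covered by a gene on the opposite strand were not left out, and for Hoxb3 these were 52.9% of its exon bases. The strand setting of the counting is not given. The gap between Hoxa4 and Hoxb3, and the place of Hoxb3 below the leading genes, are therefore uncertain.

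The extent of the signal along the clusters was as follows. In cluster A (chr6:52155590-52260880 of GRCm38) the Cb-T libraries did not overlap with Cb-N for Hoxa2 to Hoxa5, in cluster B (chr11:96194316-96368256) from Hoxb2 up to Hoxb8, in cluster C (chr15:102921103-103036852) for Hoxc4 and Hoxc5, and in cluster D (chr2:74668310-74765142) for Hoxd3 and Hoxd4. Cluster B gave 48.6% of the Hox counts of Cb-T (exact binomial interval 45.6 to 51.6), cluster A 35.0% (32.1 to 37.9), cluster C 12.1% (10.3 to 14.2) and cluster D 4.32% (3.19 to 5.71). Cluster B had 528 counts in Cb-T against 17 in the controls, a ratio of 28.2 (interval 17.4 to 48.7), and cluster A had 380 against 17, a ratio of 20.3 (interval 12.5 to 35.2). Cluster C had 132 against none (at least 39.9-fold higher), and cluster D had 47 against 7 (ratio 6.09, interval 2.73 to 16).

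The Hox counts of Cb-N and Cb-T were also divided by paralog number, as a description with no test, since these values chose the clusters. All shares here are of the counts of the 39 genes, and those of paralogs 2 to 4 and of 5 to 8 do not add up to the whole. Paralogs 2 to 4 held 27 of the 41 Hox counts in Cb-N, or 65.9% (exact binomial interval 49.4 to 79.9), and 566 of 1087 in Cb-T, or 52.1% (49.1 to 55.1). Paralogs 5 to 8 held 8 of 41, or 19.5% (8.82 to 34.9), and 500 of 1087, or 46.0% (43.0 to 49.0). The share of paralogs 5 to 8 was 14.3, 18.8 and 27.3% in the 3 Cb-N libraries and 48.8, 44.2 and 45.0% in the 3 Cb-T libraries, which did not overlap. On the same division, the pooled ratio of Cb-T to Cb-N was 19.0 for paralogs 2 to 4 (interval 12.9 to 29.1) and 56.7 for paralogs 5 to 8 (interval 28.5 to 132), and these intervals overlap narrowly.

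**Figure D4:**
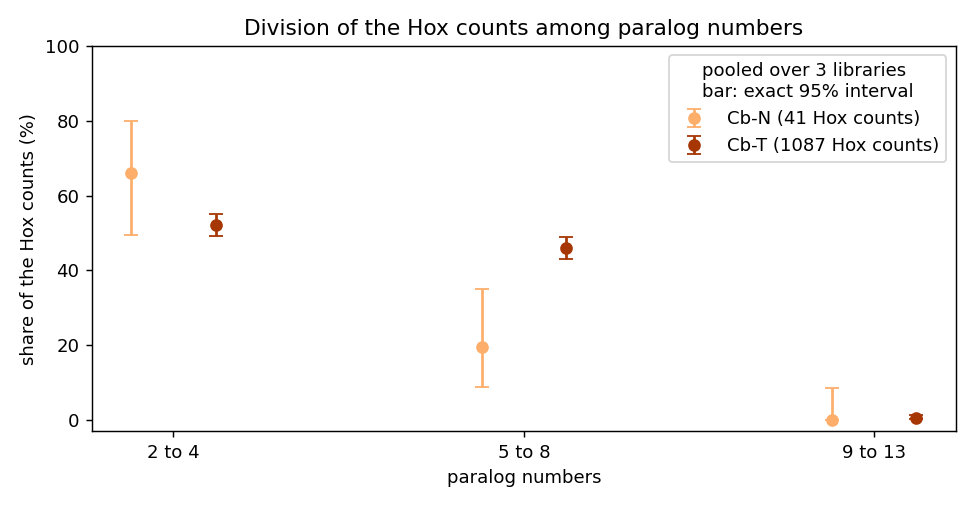
Share of the Hox counts that falls on paralogs 2 to 4, 5 to 8 and 9 to 13, pooled over the 3 libraries of Cb-N (41 counts) and of Cb-T (1087 counts), with exact 95% binomial intervals as bars. Paralogs 5 to 8 take 46.0% in Cb-T and 19.5% in Cb-N.

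The control cerebellum was also set beside the control forebrain/midbrain. The Cb-N values took part in the choice of the clusters, with F/M as background, so this comparison is a description too. No Hox gene passed the filter there. With the filter off, edgeR's quasi-likelihood test covered 14 Hox genes and called 3 of them higher in Cb-N, Hoxb2, Hoxa3 and Hoxa4, where 12.9% of 29680 genes were called higher. These genes had 6, 5 and 5 counts over the 3 Cb-N libraries and none over F/M-N. At such low counts, and with genes chosen on these values, nothing is read from the calls.

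In F/M, where the same genotypes were compared, no Hox gene passed the filter. With the filter off, edgeR tested 9 Hox genes between F/M-T and F/M-N, called none and found none at an unadjusted p under 0.05, where 1.74% of 29969 genes were called higher, and DESeq2 and limma-voom, run on the filtered genes, tested no Hox gene. Of the 10 genes described in full, 8 had no count in any F/M library, and the exceptions were Hoxb3 with 1, 0 and 1 counts in F/M-N and 0, 2 and 0 in F/M-T, and Hoxc4 with 1 count in F/M-T. At this depth a fall or a small rise of a Hox gene in F/M was not detectable. No F/M-T library had more than 2 counts of any of these 10 genes, whereas Hoxb5 had 50 or more in every Cb-T library.

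All genes were searched for those with the same order of counts. Of the 52459 genes, 10 had at most 3 counts in every Cb-N and F/M library and at least 10 in every Cb-T library, and 9 of these were Hox genes (the 10 described in full except Hoxb3, which had 5 counts in a Cb-N library). These limits restate the values by which the clusters were chosen, so nothing is read from the number of Hox genes among the 10. The other was Hoxb3os, an antisense transcript in cluster B. It had 19, 26 and 13 counts in Cb-T and 3, 2 and 3 in Cb-N, a log2 fold change of 2.68 (SE 0.47). The setting of strand in the counting is not given, and Hoxb3os covers 52.9% of the exon bases of Hoxb3 and 27.3% of those of Hoxb2 on the opposite strand, so reads of these genes cannot be told apart.

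Other genes within the clusters were mostly silent. Of 46 further annotated genes there, 30 had no count in any library, among them all 7 microRNA genes, whose short products poly(A) libraries do not capture. Hoxaas2, a non-coding transcript next to Hoxa3, had 4, 10 and 8 counts in Cb-T and 0, 0 and 1 in Cb-N. Haglr, which starts beside Hoxd1, had 3, 7 and 3 counts in Cb-T and 3, 7 and 8 in Cb-N, and the pseudogene Gm11539 had 7, 6 and 5 against 3, 3 and 5. Of the 16 flanking protein-coding genes, 13 were tested, and edgeR called none, with 4 at an unadjusted p under 0.05, and DESeq2 and limma-voom called none either. Skap2 beside cluster A had a log2 fold change of 0.48 (SE 0.07), and Evx2 next to Hoxd13 had 0.48 (SE 0.35). Evx1, a homeobox gene beyond Hoxa13, was not tested, with 16, 5 and 13 counts in Cb-T and 4, 1 and 1 in Cb-N, and neither was Skap1 beyond Hoxb1, with 22 counts over Cb-T and 4 over Cb-N.

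Hox proteins bind DNA together with TALE homeodomain partners, and of the 9 partners tested 1 passed the test between Cb-T and Cb-N, where 11.2% of all genes tested were called in either direction. This was Meis2, which rose from 5.22 ± 0.379 CPM to 28.8 ± 0.954 CPM (log2 fold change 2.48, edgeR adjusted p = 3.3e-28) and stood at 157 CPM in F/M-N, where Hox genes had few counts. Meis1 (60.3 and 52.5 CPM in Cb-N and Cb-T) did not pass. The median log2 fold change of the 9 partners was -0.02, beside 0.01 over all genes tested. Of the 13 genes upstream of Hox expression, 7 were tested and 2 rose (beside 8.54% of all genes called higher), among them Egr2, which activates Hox genes of paralog 2 in the hindbrain (0.153 ± 0.109 to 0.87 ± 0.209 CPM, adjusted p = 7.0e-06 in edgeR). Egr2 is also a gene of stimulated neurons, and in F/M it fell in the same genotype, from 23.7 ± 0.955 to 13 ± 0.219 CPM (edgeR adjusted p = 8.7e-09). Cdx2 and Cdx4, activators of the trunk Hox genes, had no count in any library. None of 15 Polycomb and trithorax genes, which keep Hox genes off or on, was called by edgeR, 8 had an unadjusted p under 0.05, and DESeq2 and limma-voom also called none. Their median log2 fold change was -0.11, with Kmt2a at -0.53 (343 to 236 CPM).

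Genes of brainstem neurons moved together with the Hox genes. Of 13 genes of motor and monoamine neurons, 12 were tested and 11 rose in Cb-T, where 8.54% of all genes tested were called higher, with a median log2 fold change of 2.68, and their summed level went from 21.2 to 23.4 CPM over the Cb-N libraries to 61.0 to 67.6 CPM over the Cb-T libraries. Slc18a2, the vesicular monoamine transporter, rose from 0.82 ± 0.129 to 10.6 ± 0.773 CPM (log2 fold change 3.7). Dbh, which makes noradrenaline, rose from 0.654 ± 0.109 to 7.99 ± 0.367 CPM (log2 fold change 3.62), and Chat, which makes acetylcholine, from 0.106 ± 0.0236 to 1.55 ± 0.325 CPM (log2 fold change 3.81). The gene of the list that was tested and not called was Th, at 11.1 and 13 CPM, and Fev was too low to test. In F/M, where 2.63% of the 16665 genes tested were called higher, 2 of the 11 genes of the list that were tested rose, Tph2 (1.21 to 9.65 CPM) and Slc6a4 (0.144 to 6.33 CPM), which mark serotonin neurons. Of 4 genes of glycinergic and VGLUT2 neurons, all were tested in Cb and 2 rose (beside the same 8.54% of all genes), the glycine receptor gene Glra1 (log2 fold change 2.32) and Slc17a6. Slc17a6, the vesicular glutamate transporter of most brainstem excitatory neurons, went from 21.2 ± 1.22 to 102 ± 1.42 CPM, whereas the glycine transporter gene Slc6a5 was at 48.7 and 47.5 CPM. In F/M, 1 of these 4 genes was called, Slc6a5, which rose from 1.13 ± 0.523 to 2.08 ± 0.256 CPM (edgeR adjusted p = 0.013). Slc17a6 stood at 127 CPM in F/M-N.

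**Figure D5:**
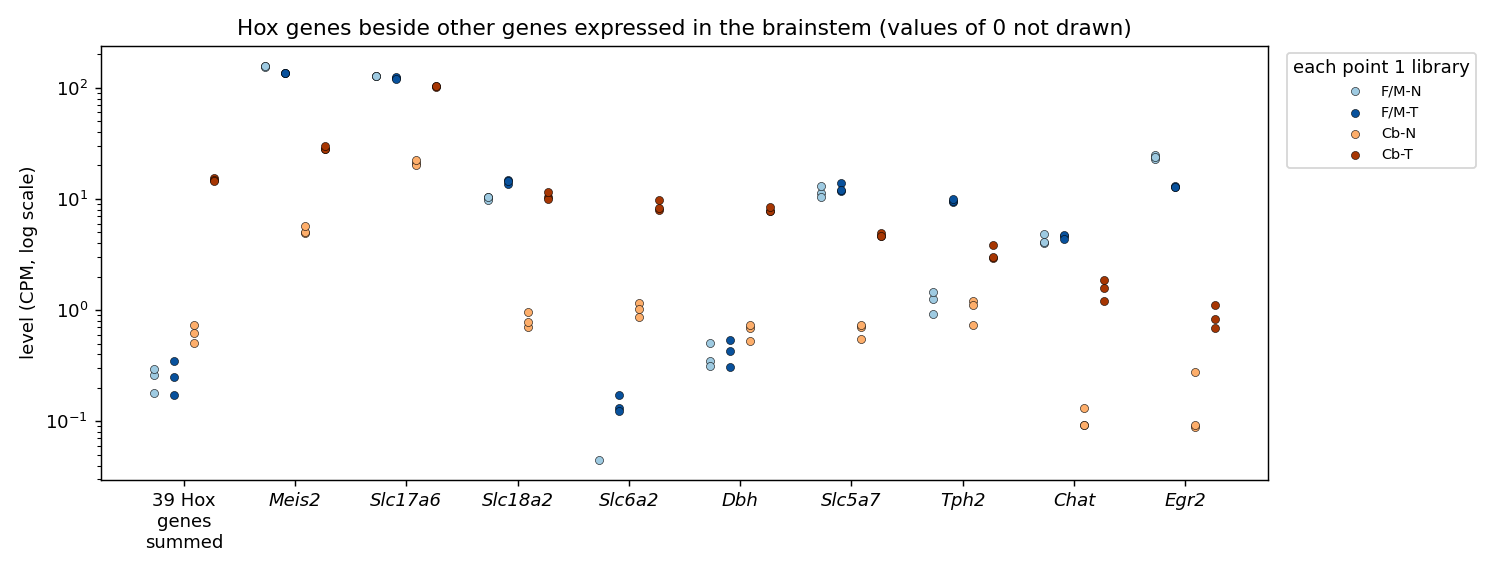
Level in CPM on a log scale of the 39 Hox genes summed and of 9 other genes expressed in the brainstem, with each point 1 library and values of 0 not drawn. The Cb-T points lie above the Cb-N points in every column, and the Hox sum, Slc6a2 and Dbh are also low in F/M, while Meis2, Slc17a6 and Chat are not. All 9 genes shown were called higher in Cb-T, so the order of Cb-T and Cb-N follows from their choice. Members of the same lists that were not called, such as Meis1, Slc6a5 and Th, are not shown.

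Among 20 transcription factors of the hindbrain and spinal cord, 14 were tested, 6 rose (against 8.54% of all genes called higher) and 2 fell (against 2.66% called lower) in Cb-T, and the median log2 fold change was 0.2. Among those that rose were Prrxl1 (log2 fold change 3.93), Gata3 (3.34), Lmx1b (1.99), Pax8 (1.99) and Tal1 (1.25). Tlx3 (-0.6) and Pax2 (-0.63) fell. The call of Tlx3 ended without Cb-T replicate 2 (-0.52) or Cb-N replicate 3 (-0.53), and that of Pax2 without Cb-T replicate 2 (-0.58) or replicate 3 (-0.56). Mnx1, the marker of spinal motor neurons, had no count in any library. Of 10 forebrain genes, 4 were tested and 2 rose, against 8.54% of all genes, Lhx2 (0.107 ± 0.0715 to 1.53 ± 0.281 CPM) and Six3 (0.136 ± 0.121 to 2.79 ± 0.116 CPM). Lhx2 and Six3 are expressed mainly in front of the Hox domain. Emx2, which marks the dorsal forebrain, was not tested, with 8, 8 and 4 counts in Cb-T and 1, 0 and 0 in Cb-N. Of the 11 cerebellar genes tested, 1 was called lower by edgeR, beside 2.66% of all genes, 10 had an unadjusted p under 0.05, and the median log2 fold change was -0.32. Among those not called at 1.5-fold, Zic1 (-0.5), En2 (-0.44) and Gabra6 (-0.39) fell most, and Pcp2 (-0.06), Cbln1 (-0.07) and Cbln3 (0.03) moved least. The gene called was Eomes, the marker of unipolar brush cells, which fell from 53.2 ± 0.978 to 11.4 ± 0.412 CPM. In F/M, where 0.858% of all genes tested were called lower, Eomes fell as well, from 3.49 ± 0.183 to 0.941 ± 0.154 CPM (edgeR adjusted p = 4.7e-07).

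Tissues that border the cerebellum were checked in the same way. For the choroid plexus, 10 of 10 genes were tested, and edgeR, DESeq2 and limma-voom called none, with 6 at an unadjusted p under 0.05 in each. Their summed level was 3573 to 3751 CPM in Cb-N and 3609 to 3777 CPM in Cb-T. Of 9 genes of meningeal fibroblasts, 1 was called higher (beside 8.54% of all genes), Aebp1 (log2 fold change 0.78), and 6 had an unadjusted p under 0.05 in edgeR, DESeq2 and limma-voom. Col1a2, Dcn, Ogn, Igf2 and Slc6a13 were not called, with log2 fold changes of 0.17 to 0.31, and each Cb-T library was above each Cb-N library for these 5. The summed level was 284 to 293 CPM in Cb-N and 335 to 338 CPM in Cb-T. For skeletal muscle and for lymphocytes and neutrophils, 2 genes each could be tested, and neither edgeR, DESeq2 nor limma-voom called any or found an unadjusted p under 0.05. Of 4 genes of peripheral nerve and sensory ganglion, 2 were tested, and Avil fell (log2 fold change -0.61, beside 2.66% of all genes called lower), a call that ended without Cb-T replicate 1 or Cb-N replicate 3 (-0.48 in both). The other, Prx (0.64), was not called by edgeR, and limma-voom and the replicate block called it higher, as did edgeR without Cb-T replicate 3 (0.82) or Cb-N replicate 2 (1.08). The summed level of muscle genes was 1.93 to 2.35 CPM in Cb-N and 1.86 to 2.7 CPM in Cb-T, that of lymphocytes and neutrophils 2.57 to 3.12 and 2.11 to 3.04 CPM, and that of peripheral nerve 2.22 to 2.7 and 2.15 to 2.57 CPM. The part of brainstem, meningeal or other tissue in the Hox values was not tested, and a difference in dissection between genotypes cannot be told apart from the genotype, since all Cb-T libraries come from Tpp1-/- mice.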

How the data were processed

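The authors sequenced stranded poly(A) libraries as single-end reads, aligned them to GRCm38 (mm10) with STAR (2.5.1b in the submitters' processing notes) and deposited raw counts per gene from featureCounts (Rsubread, 1.26.1), 1 table per library, without normalization. The strand setting, the treatment of reads with several alignments and the annotation release are not given in the sources used here. Groups and replicate numbers came from the labels. Labels and paper give 3 replicates per group, and p-values measure the spread between these.

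From the counts, TMM-normalized CPM, exact Poisson and binomial intervals (95%) and, per contrast, edgeR's quasi-likelihood test (edgeR 4.0.16, R 4.3.3) on 6 libraries were computed, with genotype or area as the only factor, filterByExpr (minimum count 10, minimum total 15) and Benjamini-Hochberg adjustment over all genes tested. Genes were called at FDR below 0.1 and at least 1.5-fold. Every adjusted p is from this test. Intervals of a ratio compare pooled counts and do not hold the spread between mice. Alternatives used DESeq2 1.42.0 and limma 3.58.1, RLE size factors, other filters and limits, all 12 libraries in 1 fit, the replicate block and leaving out each library. The tests were checked on simulated counts. Replicates of a group were separate libraries (chi-square per degree of freedom 1.28 to 3.59 for 12 pairs).

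The members, the lists of other genes and the tests were chosen with earlier results of these data known. Named in full were Hox genes with at least 10 counts in every Cb-T library. Others are given by counts, and further genes were named from 13 fixed lists, as neighbors or inhabitants of the clusters, or for sharing the Hox pattern (at most 3 counts in every other library and at least 10 in every Cb-T library). Positions and exon lengths are from GENCODE M21 on GRCm38, which held 91.7% of the symbols, and promoter windows from RefSeq on GRCm38.p6. Cuffdiff results and the study's qPCR and in situ measurements were not used here. Results for a few genes are not reported here.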

Additional observations from a re-analysis of the deposited data

How the results depend on the processing

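The fitted log2 fold changes of the 10 Hox genes described in full lay between 2.91 and 8.99 over 120 refits (12 settings each). These genes were chosen by their counts in the same libraries, which fixes the direction, so the refits are no support for it. For Hoxa4, Hoxa5, Hoxb3 and Hoxb4, leaving out a Cb-N library raised the fitted fold by over 1.5 times (Hoxb3 from 4.17 to 5.95 on the log2 scale). For Cb-T against Cb-N, 10 Hox genes were called, 16 with no filter on low counts, and 10 to 11 when a library was left out. No Hox gene could be tested at a mean count of at least 50, nor with the filter in F/M. For Cb-N against F/M-N, 0 were called with the filter, 3 without it and 4 in a single fit of all 12 libraries. With total library size in place of TMM, the summed Hox level in Cb-T was 15.6 CPM and that of paralogs 2 to 4 was 8.10 CPM. For the choroid plexus 0 to 1 genes were called when a library was left out (1 without Cb-T replicate 1), and for peripheral nerve and sensory ganglion 0 to 2 (0 without Cb-T replicate 1 or Cb-N replicate 3, 2 without Cb-T replicate 3 or Cb-N replicate 2). For transcription factors of the hindbrain and spinal cord they were 6 to 8 (6 without Cb-T replicate 2). Between same-numbered libraries of compared groups, the deviations of genes from their group means correlated at -0.022 to 0.089. These values do not show whether such libraries are paired, and the labels link them only by the replicate number. A replicate block on this number gave 10 called Hox genes, and 2 called genes of peripheral nerve and sensory ganglion. The cause of these shifts was not tested. Counts of 0 to 5 in Cb-N limit every ratio.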
